A study of Homo sapiens with 8 samples.

Results

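The binding sites described here are the ChIP-seq peaks whose nearest gene is TMEM177, ATP6AP1L or ZBED5. They were found by gene name in 6 deposited peak lists, which gave 17 peaks of 23433 in all. After overlapping peaks were merged across lists, the 17 peaks formed 8 regions. TMEM177 had 4 peaks at 1 region, ATP6AP1L had 12 peaks at 6 regions, and ZBED5 had 1 peak. The 3 genes were selected on their peak scores, on the proteins they were listed for and on their motif counts, so those values are given as a description and none was tested.

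The lists come from DLD-1 cells, a human colon cancer line with high endogenous Wnt signaling, in which doxycycline turned on a FLAG-tagged dominant negative form of TCF1E. One clonal line carried dnTCF1EWT, the form with an intact C-clamp, and a separate clonal line carried dnTCF1Emut, whose C-clamp cannot bind DNA. Each protein was immunoprecipitated with anti-FLAG beads from untreated cells (0 h) and from cells given 1 ug/mL doxycycline for 2 or 9 h, which gave 6 conditions with 1 list each. By the methods of the study the duplicates of a condition were pooled before peaks were called, although the sample labels describe most libraries as a first replicate, and either way no spread between replicates can be given for any value. Since each protein had its own cell line and its own libraries, a difference between dnTCF1EWT and dnTCF1Emut cannot be told apart from a difference between lines or library batches. The 0 h lists hold what the anti-FLAG beads recovered without induction, and the input libraries were not analysed here.

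TCF1 and its relatives are the transcription factors at the end of the Wnt pathway, where they recruit beta-catenin to target genes. A dominant negative TCF lacks the part that holds beta-catenin, so it occupies sites without activating them. The HMG box of these proteins binds the Wnt response element (WRE), and the E-tail isoforms carry a second DNA binding domain, the C-clamp, which recognizes a GC-rich Helper site. TMEM177 encodes a mitochondrial inner membrane protein that takes part in the assembly of cytochrome c oxidase, ATP6AP1L is related to ATP6AP1, an accessory subunit of the vacuolar proton pump, and ZBED5 is a BED-type zinc finger gene that arose from a DNA transposon.

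The number of peaks was 1907, 5585 and 12996 in the dnTCF1EWT lists at 0, 2 and 9 h, and 708, 1883 and 354 in the dnTCF1Emut lists. Every list started at a MACS peak score of between 50.01 and 50.21. A higher score stands for a smaller P-value of the peak, and since deeper sequencing also raises it and the depth of each library is unknown from the lists, scores were compared mainly by rank and beside the other regions of the same lists. The lists also give the number of matches in each peak to 3 motifs. The WRE is CTTTG, then A or T at each of the next 2 positions, then C or G. The short Helper site is ACCG or GCCG, and the Helper site is ACCGCC or GCCGCC, so every Helper site also holds a short Helper site.

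Both promoter sites lay beside GC-rich start regions, which are shown here because the WRE and the Helper site are what the C-clamp comparison turns on. The sequences are the 250 bases upstream of the annotated start of TMEM177 (GRCh38.p14, chr2:119678951-119679200, plus strand) and of ZBED5 (GRCh38.p14, chr11:10858054-10858303, minus strand), taken from RefSeq and written 5′ to 3′ along the gene, with Helper sites on either strand in capitals. No window was on hand for ATP6AP1L.
TMEM177: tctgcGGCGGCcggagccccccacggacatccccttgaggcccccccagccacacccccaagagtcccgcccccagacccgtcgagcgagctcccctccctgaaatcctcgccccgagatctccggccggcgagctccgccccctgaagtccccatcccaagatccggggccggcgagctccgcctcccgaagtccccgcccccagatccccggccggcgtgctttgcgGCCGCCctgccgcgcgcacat
ZBED5: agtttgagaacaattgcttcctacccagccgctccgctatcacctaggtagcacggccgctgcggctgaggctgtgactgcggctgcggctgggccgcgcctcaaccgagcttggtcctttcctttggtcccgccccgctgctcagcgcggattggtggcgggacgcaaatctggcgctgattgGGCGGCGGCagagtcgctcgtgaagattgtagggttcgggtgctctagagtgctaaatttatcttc

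Neither window held a WRE on either strand, a motif present in 5.56% of 35116 RefSeq promoter windows of this length. The TMEM177 window was 74.8% GC with 14 short Helper sites, a number reached by 5.27% of windows, and the ZBED5 window was 61.2% GC with 10, a number reached by 14.5%. Each held 2 Helper sites, and 17.8% of windows held at least as many, with matches counted on both strands and overlaps allowed. In TMEM177 they lay 245 to 240 bases and 21 to 16 bases upstream of the start. In ZBED5 they overlapped, at 66 to 61 and 63 to 58 bases upstream, and both read on the opposite strand. The peak coordinates are on hg19 and these windows on GRCh38, so peaks were not placed on the printed letters. By the distances in the lists, the TMEM177 peaks ended 225 to 273 bases upstream of the start used there and thus lay mostly beyond a window of this length, whereas the ZBED5 peak ran from 102 bases upstream to 232 bases downstream.

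At the TMEM177 promoter, both proteins had a peak at 2 h and at 9 h post-induction, and neither had one without doxycycline. On hg19 the dnTCF1EWT 2 h peak lay at chr2:120435841-120436518, with its center 564 bases upstream of the start, and was annotated as promoter. Its peak score was 1053.21, rank 15 of 5585. At 9 h the dnTCF1EWT peak, chr2:120435951-120436470, had a score of 487.53 (rank 29 of 12996). The dnTCF1Emut peaks lay at the same place, at chr2:120435894-120436470 with a score of 228.26 at 2 h (rank 133 of 1883) and at chr2:120435958-120436514 with a score of 99.90 at 9 h (rank 69 of 354). TMEM177 thus stood among the highest dnTCF1EWT peaks at both times, and further down both dnTCF1Emut lists.

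The region downstream of ATP6AP1L held 2 intergenic sites that were listed in all 4 conditions with doxycycline and in neither 0 h list. The stronger one, about 82 kb downstream of the ATP6AP1L start, was at chr5:81682913-81683626 in the dnTCF1EWT 2 h list, with a score of 1257.18 and rank 10. The dnTCF1EWT score there at 9 h was 163.75 (chr5:81683099-81683582, rank 210). For dnTCF1Emut this site had a score of 924.44 at 2 h (chr5:81682855-81683697) and 265.41 at 9 h (chr5:81682904-81683605), and it was rank 5 in both dnTCF1Emut lists. It was therefore near the top of both mutant lists, which the TMEM177 promoter was not. The lists name ATP6AP1L as protein-coding, whereas RefSeq on GRCh38 has it as a transcribed pseudogene, with RPS23 and TMEM167A as the next protein-coding genes on either side.

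The weaker ATP6AP1L site lay 29.6 kb closer to the gene, about 52 kb downstream of the start. Its scores were 584.49 for dnTCF1EWT at 2 h (chr5:81652547-81653295, rank 68) and 130.42 at 9 h (chr5:81652739-81653179, rank 326). The dnTCF1Emut scores were 346.95 at 2 h (chr5:81652615-81653202, rank 40) and 66.16 at 9 h (chr5:81652642-81653200, rank 177). In each of the 4 lists it scored below the 82 kb site.

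The ZBED5 promoter had a peak in the dnTCF1EWT 2 h list only, at chr11:10879388-10879722, with its center 65 bases downstream of the start. Its score of 106.50 was rank 867 of 5585, so the site is not among the top-scoring peaks, and the strongest peak of the list scored 3217.62. The promoter annotation of the peak names a transcript of ZBED5-AS1, the neighboring gene on the opposite strand, while the nearest start is that of ZBED5. In GRCh38 the starts of these genes are 164 bases apart and point away from each other, so the peak can be assigned to either gene. No peak was listed there for dnTCF1EWT at 9 h or for dnTCF1Emut at any time, which means only that none reached the score at which the lists begin.

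**Figure D1:**
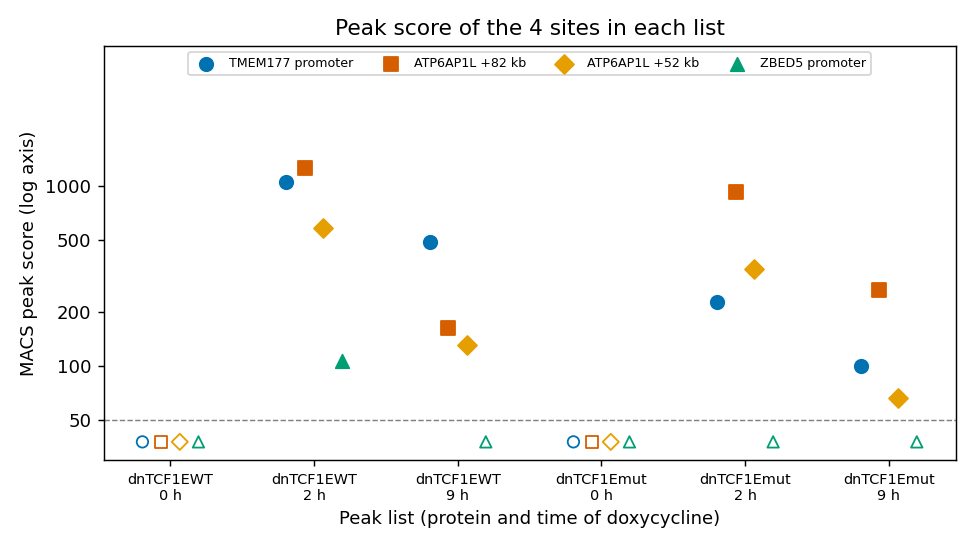
MACS peak score (log axis, no unit) of the 4 sites in each of the 6 peak lists, 1 pooled list per protein and time of doxycycline. Filled symbols are listed peaks, open symbols under the dashed line at 50 mark a site with no peak in that list, and they carry no value. The TMEM177 promoter falls from 1053.21 and 487.53 for dnTCF1EWT to 228.26 and 99.90 for dnTCF1Emut, while the ATP6AP1L +82 kb site is highest in the dnTCF1EWT 2 h list and in both induced dnTCF1Emut lists.

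The order of the sites by score differed between the proteins. For dnTCF1EWT at 2 h the 82 kb ATP6AP1L site came first, then TMEM177, then the 52 kb site and ZBED5 last, and at 9 h TMEM177 came first. For dnTCF1Emut at 2 h TMEM177 scored below both ATP6AP1L sites, and at 9 h it lay between them. With 1 list per condition there is no spread against which neighbors in these orders can be judged. In the dnTCF1EWT 2 h ranking the 82 kb site stood between RPTOR (1278.08) and MIR4714 (1238.51), TMEM177 between DTYMK (1079.06) and FUNDC2P2 (1046.04), the 52 kb site between AGTPBP1 (591.71) and SFTA1P (581.79), and ZBED5 between SIGLEC10 (106.60) and RUNX2 (106.18).

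Being listed for both proteins at both times was uncommon among dnTCF1EWT 2 h peaks. A peak in all of the 3 other induced lists was found for 58 of 5585 regions (1.04%), for 5.2% of the top 1000, for 2.36% of the promoter peaks and for 0.919% of the intergenic peaks. For all 5585 regions, a dnTCF1EWT 9 h peak was found at 14.9%, a dnTCF1Emut 2 h peak at 9.44% and a dnTCF1Emut 9 h peak at 1.75%. Among the top 1000, where all 4 sites of the 3 genes stand, these shares were 47.5, 37.5 and 7.8%. They were 24.4, 5.51 and 2.36% for promoter peaks, the class of TMEM177, and 15.2, 9.98 and 1.8% for intergenic peaks, the class of the ATP6AP1L sites. Since the 3 sites of TMEM177 and ATP6AP1L were taken up because both proteins were listed there, their number carries no weight against these shares. Of the 58 regions, 40 held a WRE, 9 held a Helper site, 27 were intergenic and 3 were promoters. Besides TMEM177 these promoters were KLRC3 (scores of 278.60, 86.53, 151.92 and 58.66 for dnTCF1EWT at 2 and 9 h and dnTCF1Emut at 2 and 9 h) and KLRC2 (204.38, 89.30, 147.91 and 51.56). KLRC2 and KLRC3 are near-identical receptor genes of natural killer cells, so reads may have been split between them.

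A peak in only 1 list, as at ZBED5, was the common case. Of the 5585 dnTCF1EWT 2 h peaks, 4369 (78.2%) overlapped no peak of the 5 other lists, among the 127 promoter peaks 94 did not (74.0%), and of the intergenic peaks 77.1% did not. In the top 1000, to which ZBED5 belongs, the share was 33.0%. The absence of a dnTCF1Emut peak at ZBED5 is thus shared with most promoter peaks of this list.

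The score of dnTCF1EWT at TMEM177 was 4.61-fold that of dnTCF1Emut at 2 h (log2 ratio 2.21). Of the 527 regions listed for both proteins at 2 h, 33 had a higher ratio, and the median log2 ratio of these regions was 0.45 (quartiles -0.29 and 1.19). The dnTCF1EWT score was the higher one at 63.6% of them. At the ATP6AP1L sites the ratios were closer to this median, 1.36-fold at 82 kb (log2 ratio 0.44, with 265 regions higher) and 1.68-fold at 52 kb (log2 ratio 0.75, with 208 regions higher). When scores were divided by the median of the top 1000 of each list, the log2 ratio was 1.71 at TMEM177 and 0.25 at 52 kb, and at 82 kb it changed sign to -0.054.

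**Figure D2:**
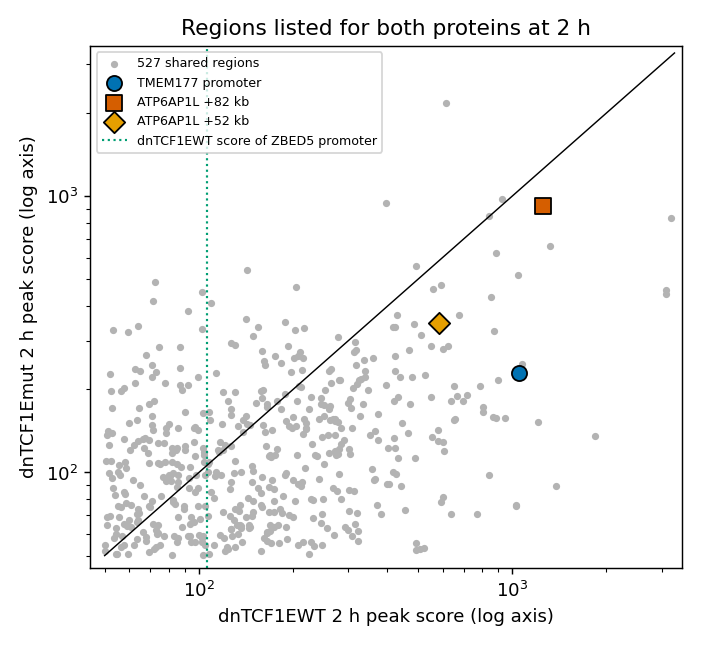
MACS peak scores (log axes, no unit) of dnTCF1EWT and dnTCF1Emut at the 527 regions listed for both proteins at 2 h, 1 point per region, with equal scores on the black line. TMEM177 lies far below the line (1053.21 against 228.26), both ATP6AP1L sites lie nearer to it, and the dotted line marks the dnTCF1EWT score of ZBED5 (106.50), where no dnTCF1Emut peak was listed.

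At 9 h the sites spread further apart. TMEM177 again had the higher dnTCF1EWT score, by 4.88-fold (log2 ratio 2.29), which 6 of the 89 regions shared at 9 h exceeded. Their median log2 ratio was 0.78, and the dnTCF1EWT score was higher at 77.5%. The 52 kb ATP6AP1L site had a log2 ratio of 0.98, with 35 regions higher. At the 82 kb site the dnTCF1Emut score was the higher one, by 1.62-fold (log2 ratio -0.70), and 81 of the 89 regions had a higher ratio. Divided by the median of each list, over the top 1000 for dnTCF1EWT and all 354 peaks for dnTCF1Emut, the 9 h log2 ratios were 1.61 at TMEM177, 0.30 at 52 kb and -1.37 at 82 kb.

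Both proteins had lower scores at 9 h than at 2 h at each of the 3 shared sites. For dnTCF1EWT the log2 ratio of 2 h over 9 h was 2.94 at the 82 kb site, 2.16 at the 52 kb site and 1.11 at TMEM177, against a median of 0.33 over 833 shared regions. Of those regions 14, 66 and 235 had a higher ratio, and 66.1% had the higher score at 2 h. For dnTCF1Emut the log2 ratios were 1.80 at 82 kb, 2.39 at 52 kb and 1.19 at TMEM177, against a median of 1.06 over 234 shared regions, where 88.5% had the higher score at 2 h. The 7.68-fold difference of dnTCF1EWT at the 82 kb site was thus exceeded at few regions, and the TMEM177 value of dnTCF1Emut lay near the middle of its list. With scores divided by the median of the top 1000, or of all 354 peaks for dnTCF1Emut at 9 h, the dnTCF1EWT log2 ratios at 82 kb, 52 kb and TMEM177 were 2.27, 1.50 and 0.44. The dnTCF1Emut ones came to 0.95, 1.54 and 0.35.

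The TMEM177 peaks held 5 WREs, 9 short Helper sites and 1 Helper site in each of the 4 lists. Since the dnTCF1EWT 2 h peak contains the others, all of these matches lie in the 513 bases common to the 4 peaks (chr2:120435958-120436470). The 5 WREs were the most of any of the 127 promoter peaks of the dnTCF1EWT 2 h list, of which 17 held any. In the whole list 8 peaks held 5 or more WREs, all of them in the top 1000, and 7 of these had a dnTCF1Emut 2 h peak. The share was 37.5% in the top 1000, 32.9% (300 of 911) for peaks with a WRE and 9.44% for all peaks. The cut of 5 is the count of TMEM177 itself. TMEM177 is among the 7 and was taken up because both proteins were listed there, so this count carries no weight. The short Helper sites were not dense, with 13.3 per kb at TMEM177 and a median of 13.3 per kb over the promoter peaks. The score was the second highest of the promoter peaks, after SP5 (1212.83), a Wnt target gene that encodes a zinc finger transcription factor.

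The 82 kb ATP6AP1L site held 1 WRE in each list, within the 484 bases common to the 4 peaks (chr5:81683099-81683582), and no Helper site. Its short Helper sites numbered 2 in the dnTCF1EWT 2 h peak, 1 at 9 h, and 3 and 2 in the dnTCF1Emut peaks. The count followed peak length, which was 714, 484, 843 and 702 bases. At the 52 kb site no list held a WRE. One short Helper site lay in all 4 peaks, and a Helper site was counted in the dnTCF1EWT 2 h peak alone. That peak extended beyond the dnTCF1Emut 2 h peak by 68 bases on 1 side and 93 on the other, so this Helper site lies in, or reaches into, these outer bases. The GC content of the sites was below that of most intergenic peaks, at 41.6 and 44.6% in the dnTCF1EWT 2 h list against a median of 47.8% over 2937 intergenic peaks, and 3 and 31 of those peaks had a higher score.

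The ZBED5 peak held no WRE, 7 short Helper sites and 4 Helper sites in 335 bases. This came to 20.9 short Helper sites and 11.9 Helper sites per kb, against 13.3 and 1.47 per kb at TMEM177. The ZBED5 peak was 60.0% GC with 7.76 CpG dinucleotides per 100 bases, and the TMEM177 peak 57.2% GC with 4.28. Of the promoter peaks 8 held more Helper sites than ZBED5, and 34 had a higher score. In the dnTCF1EWT 2 h list, 4 or more Helper sites and no WRE were found in 34 peaks, 10 of them promoters. A dnTCF1Emut 2 h peak overlapped 1 of the 34, against 9.44% of all peaks, and none of the 10 promoters, against 5.51% of all promoter peaks. A dnTCF1EWT 9 h peak overlapped 25 and 5, against 14.9 and 24.4%. The cut of 4 is the count of ZBED5 itself, which is among the 10 and was taken up with no dnTCF1Emut peak. These overlaps therefore carry no weight, and 10 promoters are too few to tell none from 5.51%. Besides ZBED5, the 10 included INTS4L2 (score 678.51), MKL1 (146.47), ESYT2 (101.54) and ZNF143 (75.23).

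**Figure D3:**
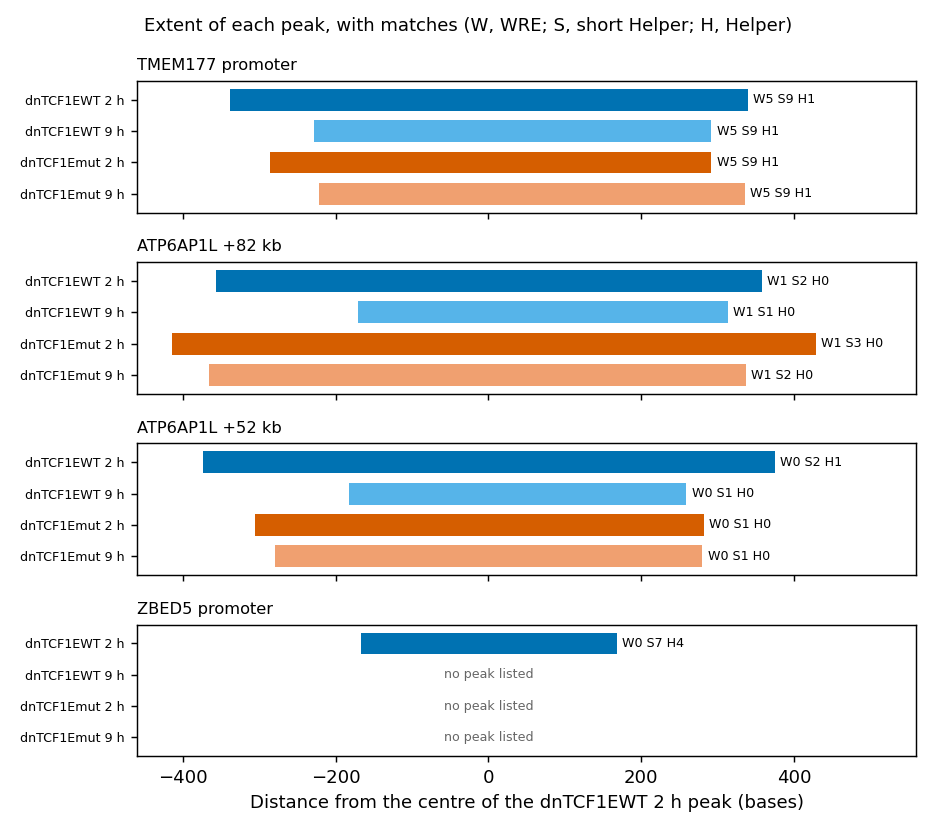
Extent of each peak of the 4 sites in bases from the center of the dnTCF1EWT 2 h peak, 1 bar per list, with the number of WREs (W), short Helper sites (S) and Helper sites (H) counted in it by the authors. The 4 TMEM177 peaks keep 5 WREs and 9 short Helper sites whatever their length, the counts at the ATP6AP1L sites vary with length, and ZBED5 has 1 bar with 4 Helper sites and no WRE.

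The motif content of a promoter peak and its overlap with dnTCF1Emut could be compared only in small numbers. A dnTCF1Emut 2 h peak overlapped 7 of the 127 promoter peaks (5.51%), among them 2 of 17 with a WRE (11.8%, 95% Wilson interval 3.29 to 34.3%), as at TMEM177. It overlapped 2 of 36 with a Helper site and no WRE (5.56%, 1.54 to 18.1%), as at ZBED5, and 3 of 74 with neither (4.05%, 1.39 to 11.3%). These intervals overlap, cover counting error only and stand as a description, since the classes hold the members and were set by the motifs that chose them. A dnTCF1EWT 9 h peak overlapped 7 of the 17 (41.2%, 21.6 to 64.0%), 15 of the 36 (41.7%, 27.1 to 57.8%) and 9 of the 74 (12.2%, 6.53 to 21.5%). The first and last of these intervals nearly meet, and no difference between the classes was tested. Overlap with the 9 h list also rose with score, from 14.9% of all peaks to 47.5% of the top 1000. Among intergenic peaks, to which the ATP6AP1L sites belong, a dnTCF1Emut 2 h peak overlapped 161 of 498 with a WRE (32.3%, 28.4 to 36.6%), the class of the 82 kb site. It overlapped 13 of 140 with a Helper site and no WRE (9.29%, 5.51 to 15.2%), the class of the 52 kb site by its dnTCF1EWT 2 h peak, and 119 of 2299 with neither (5.18%, 4.34 to 6.16%). Overlap with the dnTCF1Emut 2 h list likewise rose with score, from 9.44% of all peaks to 37.5% of the top 1000. The intergenic classes were not matched for score or length, and their difference was not tested.

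**Figure D4:**
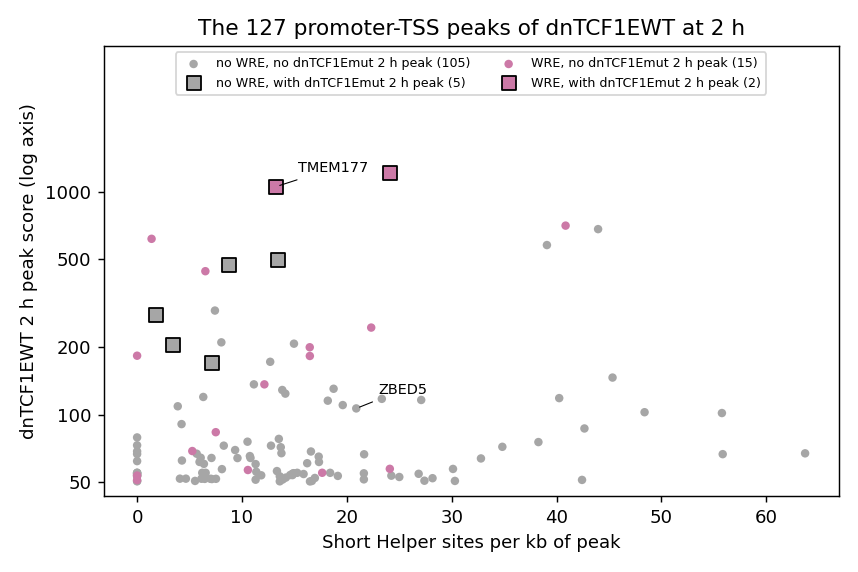
The 127 promoter peaks of the dnTCF1EWT 2 h list, by short Helper sites per kb of peak and peak score (log axis, no unit), with peaks that hold a WRE in pink and those overlapping a dnTCF1Emut 2 h peak as outlined squares. TMEM177 (13.3 per kb, score 1053.21) is 1 of 2 outlined pink squares, and ZBED5 (20.9 per kb, score 106.50) is a small gray point amid promoters of similar score.

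The 7 promoters with a dnTCF1Emut 2 h peak all had the higher dnTCF1EWT score, as did 63.6% of all 527 shared regions. These scores were not divided by the list medians, a step that lowered the TMEM177 log2 ratio from 2.21 to 1.71. The sign at promoters with a small ratio may therefore depend on it. SP5 had scores of 1212.83 and 152.92 (log2 ratio 2.99), YAP1, a coactivator of the Hippo pathway, 494.43 and 52.41 (log2 ratio 3.24), and CDCA7, a chromatin protein of dividing cells, 466.05 and 138.47 (log2 ratio 1.75). KLRC3, CYB5R4 and KLRC2 had log2 ratios of 0.87, 0.57 and 0.47, and CYB5R4 also had a dnTCF1Emut peak without doxycycline, with a score of 121.07 against 114.1 at 2 h. TMEM177, at 2.21, had the next highest ratio after YAP1 and SP5.

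The log2 ratio at 2 h was also set beside the short Helper sites counted in each dnTCF1EWT peak. At the 36 shared regions with 4 or more, which include TMEM177, the median log2 ratio was 1.82, and 11 of them exceeded TMEM177. At the 106 regions with 2 to 3, which include both ATP6AP1L sites, the median was 0.81, and 67 and 55 exceeded the 82 kb and 52 kb sites. It was 0.47 at 178 regions with 1 site and -0.069 at 207 with none. The dnTCF1EWT peaks in these sets also differed in length, with medians of 578, 493, 427 and 365 bases in the same order. By density, a split chosen after the values were seen, the order was not kept. The median log2 ratio was 0.96 at 66 regions with over 6 short Helper sites per kb, where 11 exceeded TMEM177. It was 0.43 at 114 regions with over 3 and up to 6. At 140 regions with some but no more than 3 it was 0.76. This is the set of both ATP6AP1L sites, and 93 and 70 regions exceeded them. The 207 regions with none were the same as before, with the lowest median (-0.069).

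The remaining 4 peaks of ATP6AP1L were each in a different place and in 1 list. They were in the dnTCF1EWT lists at 0, 2 and 9 h, with scores of 51.87, 60.50 and 58.43, and in the dnTCF1Emut 0 h list, with 53.16. They lay 75.2, 23.4, 193 and 168 kb downstream of the start in repeats, namely the long terminal repeat elements THE1B-int and MER9a3, an AluSg element and a simple TTATA repeat. The last had a GC content of 9.75%. They scored little above the lowest listed score, although those of dnTCF1EWT at 2 and 9 h were near the medians of their lists (59.02 and 56.87). None held a WRE or a Helper site, and the AluSg peak held 2 short Helper sites. Reads from repeats may map to more than 1 place.

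By peak score over the 6 lists, with 50 set where no peak was listed, the promoter peak most like TMEM177 was SP5 (Euclidean distance of log2 scores 1.17), followed by FGGY (2.52) and INTS4L2 (2.66), out of 126. SP5 had a score of 505.79 for dnTCF1EWT at 9 h and no dnTCF1Emut 9 h peak. Of 2936 other intergenic peaks, the peak near HHIP was most like the 82 kb site (distance 1.51), with scores of 891.40 and 332.02 for dnTCF1EWT and 622.71 and 149.97 for dnTCF1Emut at 2 and 9 h. HHIP encodes an antagonist of Hedgehog ligands, and it was followed by DACT1 (1.63), a Wnt pathway modulator, and LOC100144602 (1.67). Near the 52 kb site came MAMDC2 (0.88) and CTIF (0.88). The promoters nearest to ZBED5 were TRAPPC6B (score 108.89), ZIC2 (102.41) and ESYT2 (101.54), all listed for dnTCF1EWT at 2 h alone. They held 0, 2 and 5 Helper sites, so promoters with this pattern of scores differed in motif content.

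Regions cloned into luciferase reporters formed a second comparison. They include the TMEM177 and ZBED5 promoters themselves. The paper describes every cloned region as bound by dnTCF1EWT and not by the mutant. The lists differ from this at TMEM177, where dnTCF1Emut had a peak at 2 h and at 9 h. The lack of a dnTCF1Emut peak at the other regions repeats that description and carries no weight. For the other 7, the nearest dnTCF1EWT 2 h peak by gene name was taken for GADD45B, AXIN2, TGIF1, HIST2H2AC, HIST2H4B, BAMBI and HIST1H4K, which need not be the cloned region. A peak carried the name of 6 of these 7 genes, with scores from 55.73 (BAMBI) to 1176.77 (GADD45B, 42.2 kb from the start), and 4 of the 6 were also listed at 9 h. A Helper site was counted in 5 of the 6 and a WRE in that of AXIN2, the Wnt feedback regulator. The paper describes the cloned GADD45B region as holding a WRE. The GADD45B peak taken here, with a score of 1176.77, held none, so it is unlikely to be that region. Another GADD45B peak, with a score of 142.04, held 1 WRE and 3 Helper sites and is nearer to that description. It overlapped no dnTCF1EWT 9 h peak and no dnTCF1Emut peak. The highest score, the WRE count and the 9 h count given above therefore need not hold for the cloned GADD45B region. None of the 6 had a dnTCF1Emut peak at 2 or 9 h, against shares of 9.44 and 1.75% over all dnTCF1EWT 2 h peaks, nor had ZBED5, whereas TMEM177 was listed for dnTCF1Emut at 228.26 and 99.90. In the paper's reporter assay, full-length TCF1E with beta-catenin in COS-1 cells activated the regions of GADD45B, AXIN2, TGIF and HIST2H4B. The TMEM177 and ZBED5 promoters were among the rest, which the paper reports as not responding or not active on their own. It proposes that subcloning broke up the regulatory region or its chromosomal setting. The paper places the cloned TMEM177 region in a promoter that spans the start. The listed TMEM177 peaks ended 225 to 273 bases upstream, so they need not match the cloned region.

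Relatives and partners of the 3 genes were looked up by name in the same lists. They were ATP6AP1 and ATP6AP2, the cytochrome c oxidase assembly factors COX20, SCO1, SCO2 and COX18, and 6 other ZBED genes. Of these 12 genes 7 were listed, while 39.9% of 20056 protein-coding RefSeq symbols were named for a peak in any list, a share that misses genes whose symbol has changed since. Their 17 peaks were all in the dnTCF1EWT 2 h and 9 h lists, which hold 5585 and 12996 of the 23433 peaks, so most peaks of any gene fall there. The highest score per gene and list was between 50.69 (ATP6AP2 at 9 h) and 76.67 (COX20 at 9 h, rank 1418 of 12996), beside medians of 59.02 and 56.87 over all peaks of these lists.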

How the data were processed

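The peak lists were made by the authors, who aligned reads to hg19, pooled the duplicates of each condition, called peaks with MACS and annotated them with HOMER. The submitters' processing notes name CASAVA 1.8.2, Bowtie2 2.0.0, MACS 1.3 and HOMER 3.16. The deposited peak score is the MACS score. GC content was deposited as a fraction and is printed as a percentage. The deposited motif counts are matches within the whole peak, where HOMER merged a match with one on the other strand within 8 bases. These counts were not compared with the search of promoter windows, which merged nothing.

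Members were the peaks with the gene name TMEM177, ATP6AP1L or ZBED5. The members and all gene lists were chosen with earlier results of these data known. Other named genes were the reporter regions, relatives of the members, the 3 peaks most alike per site in the same annotation class (1 of them is not reported here), and peaks up to 2 ranks above and below. Genes with 4 or more Helper sites, and promoters in several lists, were named after their values were seen. Peaks were called shared when they overlapped by 1 base, and the highest-scoring overlapping peak was used. No test was made, since each condition is 1 list. Wilson 95% intervals cover counting error only. Depth is unknown from the lists.

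Alternatives changed the lowest score, the distance limit, the overlap, the scaling of scores and the peaks ranked. The overlap code was checked on simulated peaks. Tools were pandas 2.3.3, NumPy 2.4.6, matplotlib 3.10.9 and SciPy 1.17.1 under Python 3.11.15. Input libraries were not used here.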

Additional observations from a re-analysis of the deposited data

Results flagged for a closer look

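The 82 kb site of ATP6AP1L drew attention because dnTCF1EWT had the higher score at 2 h (log2 ratio of dnTCF1EWT to dnTCF1Emut 0.44) and dnTCF1Emut the higher score at 9 h (log2 ratio -0.70). The scores were 1257.18 and 924.44 at 2 h, and 163.75 and 265.41 at 9 h. With 1 pooled list per condition the difference between the times was not tested. When scores were divided by the median of the top 1000 peaks of each list, or of all 354 peaks of the dnTCF1Emut 9 h list, which is a different depth of list, the log2 ratios were -0.054 and -1.37, both negative. At TMEM177 the ratios at 2 and 9 h were 2.21 and 2.29 (1.71 and 1.61 after scaling), and at the 52 kb site 0.75 and 0.98 (0.25 and 0.30).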

How the results depend on the processing

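The 4 TMEM177 peaks and the 1 ZBED5 peak kept their count within 1.5 times under each limit on score and distance, with 3 TMEM177 peaks at a score of 100 or more. The 12 peaks of ATP6AP1L became 7 at a score above 67 and 7 at a score of 100 or more. Dividing scores by the median of the top 1000 of each list moved the 2 h log2 ratio of dnTCF1EWT to dnTCF1Emut to 1.71 at TMEM177, 0.25 at 52 kb and -0.054 at 82 kb, the last with a changed sign. The same scaling moved the dnTCF1EWT log2 ratio of 2 h to 9 h to 0.44 at TMEM177, 2.27 at 82 kb and 1.50 at 52 kb. A smaller scale of the later or mutant list gives this shift by construction. The rank percentile of ZBED5 was 84.5 among all peaks and 75.4 among peaks within 2 kb of a start. At 2 h the share of regions listed for both proteins was 9.44% of all dnTCF1EWT peaks, 37.5% in the top 1000, and 7.65% where the overlap had to cover 50% or more of each peak. Counting short Helper sites per kb, an alternative chosen after seeing the data, moved the median log2 ratio of the regions grouped with TMEM177 from 1.82 to 0.96 and of those grouped with the ATP6AP1L sites from 0.81 to 0.76. Of the alternative values 21 stayed, 12 moved and 1 changed sign. Motif counts in a window of 300 bases were not run, since no hg19 sequence was used here. No paired analysis was possible because each condition is 1 pooled list. Depth, which the lists do not give, limits every comparison of scores.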
